A study of Mus musculus with 8 samples.

Results

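The PTHrP and Indian hedgehog loop was described here through 10 genes, chosen by name: *Pthlh*, *Pth1r*, *Ihh*, *Ptch1*, *Smo*, *Gli1*, *Gli2*, *Gli3*, *Hhip* and *Gas1*. All 10 are among the 43629 genes of the deposited count table, and each had at least 1 count in at least 1 library. Every mouse was an Axin2CreERT2;R26RTdTomato animal that was given tamoxifen on 3 consecutive days from P23 and analyzed at P30, so both zones came from the same genotype and the same treatment. Cre under *Axin2* control marks cells that express *Axin2* at the time of tamoxifen, together with their descendants. From frozen sections 8 μm thick, TdTomato-positive resting chondrocytes (resting zone, resting libraries) and unlabeled, flattened chondrocytes at least 50 μm from the secondary ossification center (proliferative zone, proliferative libraries) were cut out by laser. The labels name tibiae, and the study's text names the distal femur and the proximal tibia. Each of 4 mice gave 1 library of each zone (n = 4 per zone). By the labels, 2 mice (numbers 1 and 2) were male and 2 (numbers 6 and 13) female.

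In the growth plate, PTHrP (encoded by *Pthlh*) is secreted at the joint end of the cartilage and acts through its receptor on proliferating chondrocytes, where it delays hypertrophy. Cells that leave this influence make Indian hedgehog, which drives proliferation and maintains PTHrP production at the far end of the column, closing a feedback loop. Hedgehog ligands bind Patched, which releases Smoothened and changes the activity of the GLI transcription factors. *Gli1*, *Ptch1* and *Hhip* are textbook targets of that output, and the products of the last 2 restrain it.

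Of the 10 genes, 5 had values that did not overlap between the zones. *Pth1r*, *Ihh* and *Ptch1* were higher in all 4 proliferative libraries, and *Gas1* and the counts assigned to *Gli1* were higher in all 4 resting libraries. Over all genes with a count, 4.98% were without overlap higher in proliferative libraries and 8.38% in resting libraries. The *Gli1* difference was lost when the counts of the gene that meets it on the opposite strand were added. *Pthlh* had 8 counts in all, each of them in resting libraries, and *Gli2* had 3. The study reported *Ihh* and *Pth1r* as higher in these proliferative samples. It named prehypertrophic chondrocytes caught in the cut as the likely reason, which was not tested here.

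Totals ranged from 192882 to 462044 counts in resting libraries and from 249284 to 631474 in proliferative libraries. Levels are given as CPM, counts scaled to a common library size with edgeR's TMM factors, and the 3 counts that an observed 0 allows correspond to 4.81 to 14.7 CPM in a library. These limits cover counting error only, since the RNA was amplified in 2 rounds of in vitro transcription and reads carried no molecular identifiers. Zones were compared by edgeR's quasi-likelihood test, first over the 3793 genes that passed its filter on low counts and then over all 17492 genes with at least 1 count. A gene was called at an adjusted p below 0.01 with a log2 fold change (resting over proliferative) above 1 or below -1. In the first comparison 11.4% of genes were called higher in resting libraries and 7.38% higher in proliferative libraries. In the second these shares were 6.05% and 1.96%. With the mouse as a block they were 11.8% and 7.20% in the first and 4.04% and 1.36% in the second. Of the 10 loop genes only *Pth1r*, *Ptch1* and *Gli1* passed the filter, and the 7 others are given from the second comparison. A gene that passed only through the zone where it is high had to differ, so every share over the genes that passed also reflects the filter.

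**Figure D1:**
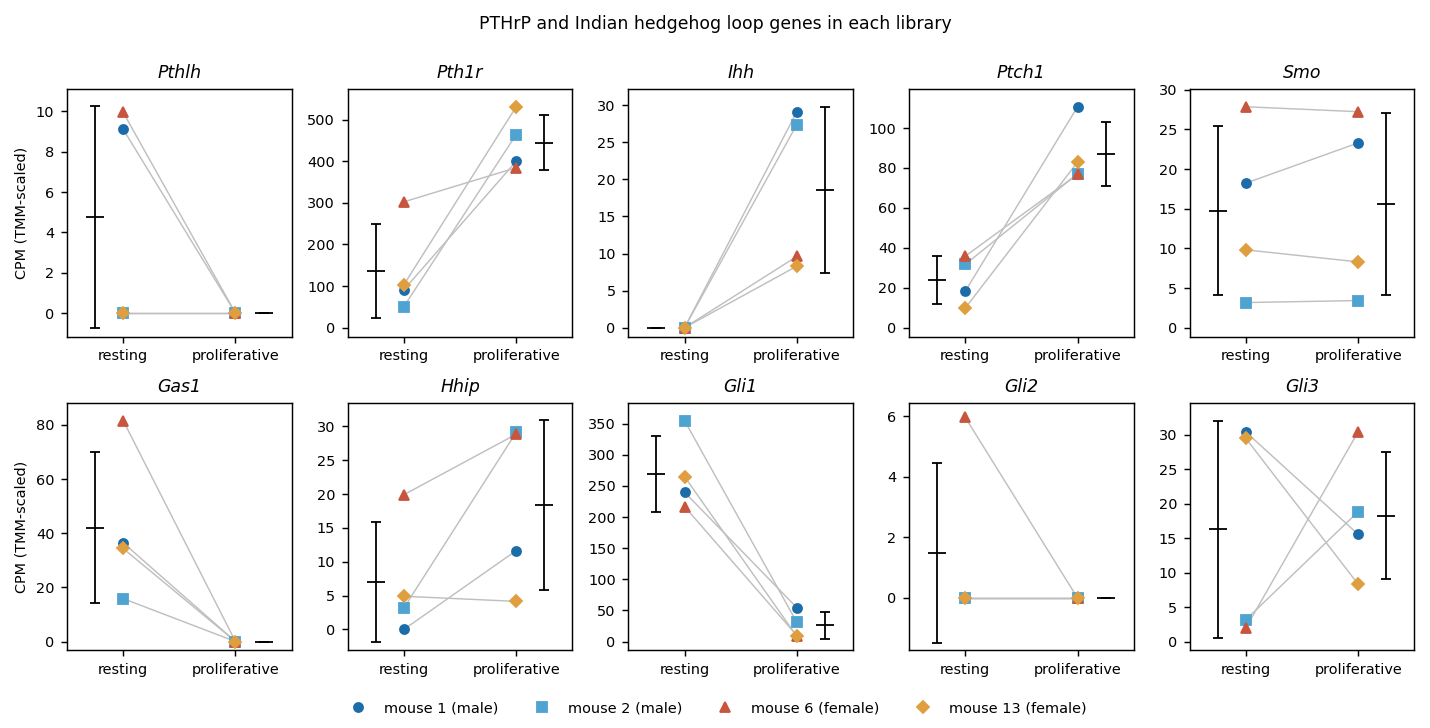
Level of each loop gene in each library, in TMM-scaled CPM on the vertical axis (each panel has its own scale) against the zone. Points are libraries, gray lines join the 2 libraries of a mouse, and black bars give the mean ± SD of 4 libraries. *Pth1r*, *Ihh* and *Ptch1* lie higher in proliferative libraries in every mouse, and *Gli1* and *Gas1* lie higher in resting libraries in every mouse.

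*Pthlh*, the gene of the ligand PTHrP (ENSMUSG00000048776, GRCm38 chromosome 6, 147252101 to 147264183), was counted 3, 0, 5 and 0 times in the resting libraries of mice 1, 2, 6 and 13 and never in proliferative libraries. The counts came from mice 1 and 6, whose resting libraries were the deepest of that zone. The resting mean was 4.77 ± 5.51 CPM (SD, n = 4), which is under the mean of 9.83 CPM that 3 counts give there, so no fold is stated. The adjusted p was 0.0714 in the comparison over all genes and 0.276 with the mouse as a block. At this depth a zone difference in *Pthlh* was not detectable, and neither its presence nor its absence could be read in mice 2 and 13.

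*Ihh*, the hedgehog ligand of the growth plate (ENSMUSG00000006538, chromosome 1, 74945315 to 74951672), was counted in each proliferative library and in no resting library. Its proliferative levels were 29.1, 27.4, 9.61 and 8.29 CPM in mice 1, 2, 6 and 13, with the 2 male mice above the 2 female mice. Against 3 counts per resting library, the mean of *Ihh* was at least 1.89-fold higher in proliferative libraries. Its proliferative counts were 15, 16, 6 and 2. The 2 counts in mouse 13 lie within the 3 that a 0 allows. Over all genes the adjusted p of *Ihh* was 0.00122, and with the mouse as a block the call was lost (adjusted p = 0.0111). The zones did not overlap. An exact two-sided permutation test that takes the 8 libraries as independent gave p = 0.0286, and an exact sign-flip test within the 4 mice gave p = 0.125, each the smallest value that its design allows.

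*Pth1r*, the receptor of PTHrP (ENSMUSG00000032492, chromosome 9, 110722085 to 110747145), had the most counts of the loop genes. Its resting levels were 91.1, 50.7, 302.4 and 103.1 CPM in mice 1, 2, 6 and 13, against 399.9, 464.0, 384.4 and 530.9 CPM in proliferative libraries. All 4 resting values lay below all 4 proliferative values, but the resting library of mouse 6 stood close to its partner. Within the mice, the proliferative level was 4.39, 9.15, 1.27 and 5.15 times the resting level. The log2 fold change was -1.67 (SE 0.44), with an adjusted p of 0.0113 that missed the threshold of 0.01. With the mouse as a block it was -1.92 (adjusted p = 0.00332), and over all genes with a count -1.65 (adjusted p = 0.000602), both of which passed. Without the resting library of mouse 6 it was -2.45 (adjusted p = 0.000153). The same library held the highest summed level of the chondrocyte markers in its zone, 19756 CPM against 7680 to 10472 CPM in the 3 others, and the part of this in the *Pth1r* value was not tested. In tissue cut from sections, fewer cells of a type and less RNA per cell cannot be told apart, which holds for every difference given here.

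*Ptch1* encodes the receptor of hedgehog ligands and is itself induced by the pathway (ENSMUSG00000021466, chromosome 13, 63508328 to 63573598). It was the only loop gene called higher in proliferative libraries among those that passed the filter. It reached the filter's level in 4 proliferative and 2 resting libraries, and the comparison over all genes, given below, does not use that filter. Its levels were 18.2, 31.7, 35.8 and 9.81 CPM in resting libraries and 110.7, 77.0, 76.9 and 82.9 CPM in the proliferative libraries of mice 1, 2, 6 and 13. The proliferative zone was higher in 4 of 4 mice without overlap, by 6.07, 2.43 and 2.15 times in mice 1, 2 and 6. In mouse 13 the resting count was 2 and the proliferative count 20. The log2 fold change was -1.78 (SE 0.40, adjusted p = 0.00498). The call also held with a mouse term in the model (adjusted p = 0.00933), and over all genes with a count that term ended it (adjusted p = 0.00439 without the term, 0.0149 with it). Among the filtered genes the call held without the resting library of mouse 2 or of mouse 6, and it was lost without any 1 of the 6 other libraries, where the adjusted p lay between 0.0108 and 0.0167. Without the resting or the proliferative library of mouse 1 the log2 fold changes were -1.65 and -1.62. Over all alternative runs the log2 fold change of *Ptch1* lay between -2.05 and -1.58.

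*Gas1* encodes a surface protein that binds hedgehog ligands and acts as a co-receptor (ENSMUSG00000052957, chromosome 13, 60174405 to 60177365). Its counts were 12, 5, 41 and 7 in the resting libraries of mice 1, 2, 6 and 13, and all 4 proliferative libraries were at 0. Against 3 counts per proliferative library, *Gas1* was at least 5.96-fold higher in resting libraries. The call held in the comparison over all genes (adjusted p = 1.34e-06) and with the mouse as a block (adjusted p = 0.000433). The lncRNA *Gm48488* shares exon sequence with *Gas1* on the opposite strand and was not counted in this table.

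*Smo*, the transducer that Patched holds in check (ENSMUSG00000001761, chromosome 6, 29735503 to 29761365), had levels of 18.2, 3.17, 27.9 and 9.81 CPM in resting libraries. In the proliferative libraries the levels were 23.3, 3.42, 27.2 and 8.29 CPM. The zones overlapped almost fully, and mice differed from each other more than zones did. The log2 fold change was -0.02 (SE 0.65, adjusted p = 0.991), an SE that leaves room for changes of more than 2-fold in either direction.

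*Hhip* encodes a membrane protein that binds and sequesters hedgehog ligands (ENSMUSG00000064325, chromosome 8, 79965851 to 80058006). Its counts were 0, 1, 10 and 1 in resting libraries and 6, 17, 18 and 1 in proliferative libraries. The proliferative zone was higher in 3 of 4 mice and the zones overlapped, with a log2 fold change of -1.24 (SE 0.70, adjusted p = 0.278). Without the resting library of mouse 6 the log2 fold change was -2.96 (adjusted p = 0.0338), also short of the threshold.

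The 3 GLI transcription factors had different patterns. *Gli2*, the main activator in many tissues (ENSMUSG00000048402, chromosome 1, 118834132 to 119053619), had 3 counts, all in the resting library of mouse 6, which is at the limit that 0 counts allow. *Gli3*, which acts mostly as a repressor (ENSMUSG00000021318, chromosome 13, 15463235 to 15730026), was counted 10, 1, 1 and 6 times in resting libraries and 8, 11, 19 and 2 times in proliferative libraries. It was higher in resting tissue of mice 1 and 13 and in proliferative tissue of mice 2 and 6, and its log2 fold change was -0.47 (SE 0.65, adjusted p = 0.655).

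*Gli1*, an activator whose transcription reports hedgehog signaling (ENSMUSG00000025407, chromosome 10, 127329882 to 127341974, minus strand), had 240.0, 355.0, 216.9 and 265.0 CPM in the resting libraries of mice 1, 2, 6 and 13. In the proliferative libraries it had 54.4, 30.8, 9.61 and 8.29 CPM. Counts assigned to it were thus higher in resting tissue of 4 of 4 mice, in the direction opposite to *Ptch1*. The log2 fold change was 3.31 (SE 0.48, adjusted p = 0.000375). *Gli1* reached the filter's level in 4 resting and 2 proliferative libraries. Over all genes with a count its log2 fold change was 3.30 (adjusted p = 2.75e-08).

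The last 62 exon bases of *Gli1* are shared with *Arhgap9* on the opposite strand, a gene of blood cells (ENSMUSG00000040345, 127321964 to 127329943 on the same chromosome). *Arhgap9* had the reverse pattern, with 82.0, 237.7, 475.5 and 152.1 CPM in resting libraries and 535.8, 614.6, 661.6 and 597.2 CPM in proliferative libraries. Its log2 fold change was -1.33 (SE 0.41, adjusted p = 0.0255), which missed the threshold without the block and passed it with the mouse as a block (adjusted p = 0.00389). Of the counts on the pair, *Gli1* held 74.5%, 59.9%, 31.3% and 63.5% in the resting libraries and 9.21%, 4.77%, 1.43% and 1.37% in the proliferative libraries. When both genes were counted together, the pair had 506.1 ± 167.3 CPM in resting libraries and 628.1 ± 37.0 CPM in proliferative libraries (SD, n = 4). The log2 fold change was then -0.31 (SE 0.25, adjusted p = 0.386), and the proliferative library was the higher one in 3 of 4 mice. The call of *Gli1* was thus lost when all counts of *Arhgap9* were added, and the sign changed at a value that was not called. The sum was not limited to the 62 shared bases. With 1564 counts on *Arhgap9* against 408 on *Gli1*, it mostly followed the larger gene.

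**Figure D2:**
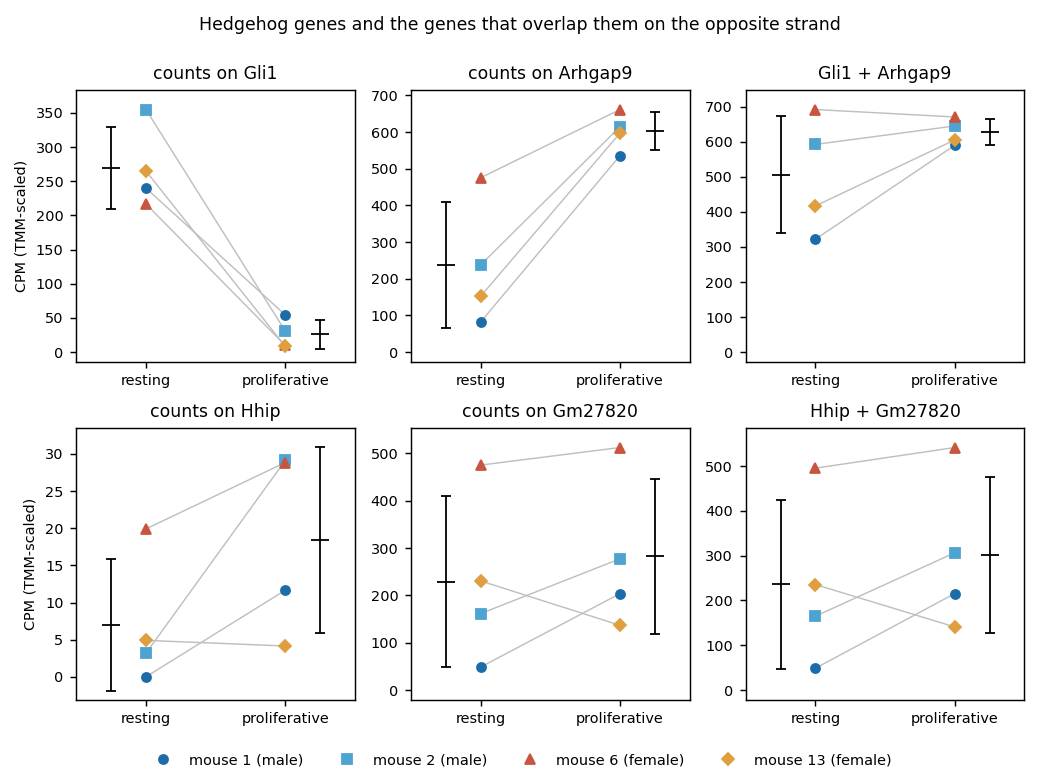
TMM-scaled CPM (vertical axis, own scale per panel) by zone for *Gli1*, *Arhgap9* and their sum in the upper row and for *Hhip*, *Gm27820* and their sum in the lower row. Points are libraries, lines join the libraries of a mouse and black bars are the mean ± SD of 4 libraries. *Gli1* and *Arhgap9* run in opposite directions in every mouse, and their sums overlap between the zones.

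Counts were also unequal between the strands in other overlapping pairs. These pairs were chosen after their values were seen. In the 4 libraries from female mice, *Xist*, the RNA that coats the inactive X chromosome, held 1367 counts and its antisense gene *Tsix* 18683. *Col9a3*, a cartilage collagen gene, held 1756 counts over the 8 libraries, and *Tcfl5*, which overlaps its 3′ end on the opposite strand, held 64349. Among the loop genes and the pathway genes described below, 8 share exon bases with a counted gene on the opposite strand within 100 exon bases of their 3′ end. In all 8 the opposite gene held more counts. The widest gaps in counts included *Gnas*, with 2911 counts against 74524 on *Gm20721*. Not every pair had this order, and *Sox5* held 294 counts against 2 on *Sox5os1*.

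The library kit keeps strand information and amplification by in vitro transcription yields RNA complementary to the transcripts, while the strand setting of the counting is not given in the sources used here. Without it, reads of a gene and its opposite partner cannot be told apart in this table. Had the counting used the setting opposite to the kit's, counts assigned to *Gli1* would belong to *Arhgap9* and the reverse, and counts of every other gene here would come from its opposite strand, which was not tested. All values are therefore given as assigned in the table. *Ptch1*, *Ihh*, *Pthlh*, *Smo* and *Gli2* have no opposite exon partner in the annotation (GENCODE M21), so for them the strand of the counts could not be read from a partner. *Pth1r* shares 95 exon bases with *Myl3*, which lie 1870 exon bases from its 3′ end, and *Myl3* had 4 counts in all. *Gli3* shares 188 exon bases with *Gm6556*, which had 1 count. *Hhip* spans *Gm27820*, an annotated RNA of 175 bases, which held 973 counts against 54 on *Hhip*. Summed, *Hhip* and *Gm27820* gave a log2 fold change of -0.35 (adjusted p = 0.590 over all genes with a count).

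Levels of different genes were compared per kilobase of merged exons, a scale on which amplification from the 3′ end was not corrected. In the proliferative libraries *Pth1r* was highest with 152.1 ± 22.9 CPM per kilobase (SD, n = 4), above every library of *Ptch1* with 6.13 ± 1.14. *Ptch1*, *Ihh*, *Gli1*, *Smo*, *Hhip* and *Gli3* followed in this order between 6.13 and 1.91 CPM per kilobase, and each overlapped with the next. In the resting libraries *Gli1* (53.9 ± 12.1) and *Pth1r* (46.8 ± 38.5) came first, followed by *Gas1* (14.2 ± 9.43), all overlapping with their neighbors. The place of *Gli1* rests on the strand to which counts were assigned: summed with *Arhgap9* and divided by the exon length of *Gli1*, its level would be 101.3 ± 33.5 CPM per kilobase in resting libraries and 125.7 ± 7.40 in proliferative libraries, where it would overlap with *Pth1r* and lie above *Ptch1*. The 6 others that were counted in the resting libraries lay at or below 2.94 CPM per kilobase, and *Ihh* was at 0.

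The rest of the pathways was described from 3 lists. Of 39 further hedgehog pathway genes 7 passed the filter and 0 were called by edgeR's quasi-likelihood test, with 2 at an unadjusted p below 0.05, a level that 40.9% of all filtered genes reached, 1 called by the likelihood ratio test and 0 by DESeq2. Their median log2 fold change was 0.53, against 0.08 over all genes tested. *Gsk3b*, a kinase that phosphorylates GLI proteins, had a log2 fold change of 1.01 (SE 0.29, adjusted p = 0.0176), and *Ext1*, which elongates the heparan sulfate chains that bind hedgehog ligands, had 1.33 (SE 0.46, adjusted p = 0.0420). For *Kif7*, *Cul3* and *Spop* the log2 fold changes were 0.59, 0.53 and -0.43. *Kif7*, a kinesin that acts on GLI proteins, is one of the 8 genes that meet an opposite gene at the 3′ end, with 141 counts against 95 on *Ticrr* in resting libraries and 142 against 498 in proliferative libraries. In the comparison over all genes, 37 of the 39 had a count and 3 were called, all higher in resting libraries, where 6.05% of all genes were called. With the mouse as a block 1 was called, *Grk2*, where 4.04% of all genes were called. *Boc*, a co-receptor like *Gas1*, had counts of 6, 3, 20 and 6 in resting libraries and 0, 1, 6 and 0 in proliferative libraries (adjusted p = 0.00925, and 0.0203 with the block). The 2 others were *Grk2*, a kinase that acts on Smoothened (adjusted p = 0.00356, and 0.00729 with the block), and *Btrc*, a ubiquitin ligase subunit that binds phosphorylated GLI proteins (adjusted p = 0.00479, and 0.0146 with the block). *Dhh*, another hedgehog ligand, had 1 count in resting libraries and 16 in proliferative libraries (adjusted p = 0.113), and *Shh* had none.

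Of 16 genes known to respond to hedgehog signaling in various tissues, 2 passed the filter. *Ccnd2*, the gene of cyclin D2, was called higher in resting libraries, with 19, 15, 20 and 23 counts there and 7, 9, 8 and 3 in proliferative libraries. It passed the filter through resting libraries alone, and none of the proliferative libraries reached the filter's level. Its log2 fold change was 2.17 (SE 0.44, adjusted p = 0.00285), and over all genes with a count, where that filter plays no part, 2.13 (adjusted p = 0.00188). Among the filtered genes the call was lost without the proliferative library of mouse 2, 6 or 13. *Ccnd1*, the gene of cyclin D1, had a log2 fold change of -0.56 (SE 0.41, adjusted p = 0.341), and held 124 counts against 1575 on *LTO1*, which shares its 3′ end on the opposite strand.

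Of 49 genes of PTHrP signal transduction 14 passed the filter and 0 were called by edgeR's quasi-likelihood test or by DESeq2. In the former test 2 of the 14 had an unadjusted p below 0.05, a level that 40.9% of all filtered genes reached. Both shares also reflect the filter, so no contrast is drawn from them. The median log2 fold change of the 14 was 0.45. *Gnas*, which encodes the stimulatory G protein that couples the receptor to adenylyl cyclase, had a log2 fold change of -0.81 (SE 0.26, adjusted p = 0.0319), with the strand counts given above. *Gnai2*, the gene of an inhibitory G protein, had 1.04 (SE 0.36, adjusted p = 0.0447). *Hdac4*, which represses hypertrophy downstream of PTHrP, had 1.22 (SE 0.57, adjusted p = 0.128), and for *Crtc1* and *Ep300* the values were -0.92 and 0.96. In the comparison over all genes, 45 of the 49 had a count and 5 were called, all higher in resting libraries: the arrestin genes *Arrb1* and *Arrb2* (adjusted p = 0.000121 and 0.00451), *Ramp3* (adjusted p = 0.000704), *Rgs2* (adjusted p = 0.000606) and the salt-inducible kinase gene *Sik1* (adjusted p = 0.00626). The share over all genes was 6.05%. With the mouse as a block, where 4.04% of all genes were called, *Arrb1*, *Ramp3* and *Rgs2* were called (adjusted p = 0.000665, 0.00584 and 0.00462). The calls of *Arrb2* (0.0349) and *Sik1* (0.0158) were lost there. Arrestins shut off and internalize receptors, and *Rgs2* dampens G protein signals. *Arrb2* had 2, 1, 7 and 7 counts in resting libraries and *Ramp3* had 15, 1, 12 and 0, against none in proliferative libraries, so that 2 resting libraries of each gene lay within the 3 counts that a 0 allows. *Rgs2* had 11, 10, 10 and 15 counts in resting libraries and 5, 1, 0 and 0 in proliferative libraries.

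**Figure D3:**
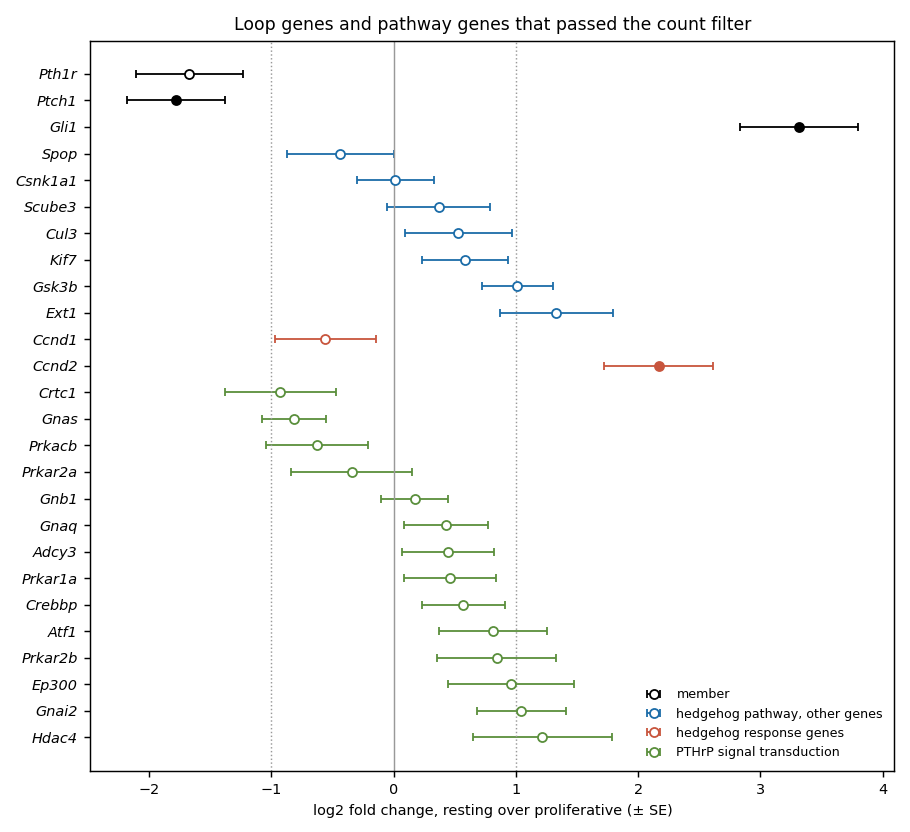
Log2 fold change of the resting over the proliferative libraries (horizontal axis, bars ± SE of the fit to 4 libraries per zone) for each loop gene and pathway gene that passed the count filter. Filled points were called, and dotted lines mark log2 fold changes of -1 and 1. *Ptch1* (-1.78), *Gli1* (3.31) and *Ccnd2* (2.17) are the called genes.

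Markers of the labeled and of other cell types moved with the zones, and their part in the values above was not tested. *Axin2* had no count in resting libraries and 1 in proliferative libraries. Counts of called markers are given from the comparison over all genes, where 6.05% and 1.96% of genes were called higher in resting and in proliferative libraries. With the mouse as a block these shares were 4.04% and 1.36%. Of 9 resting chondrocyte markers 5 were called higher in resting libraries, *Clu*, *Wif1*, *Efemp1*, *Sorl1* and *Apoe*. *Ucma* ran the other way, with 228.6 CPM in resting libraries and 474.9 CPM in proliferative libraries (log2 fold change -1.04, adjusted p = 0.0215), and the list's sum overlapped between the zones, at 659.2 to 1397 CPM against 402.3 to 725.9 CPM. Of 16 chondrocyte markers 13 were called higher in proliferative libraries, and 12 with the mouse as a block. Their summed level was 7680 to 19756 CPM in resting libraries and 35527 to 60736 CPM in proliferative libraries. Markers of prehypertrophic and hypertrophic chondrocytes, the cells known as the source of *Ihh*, were split. Of 18, *Col10a1*, *Panx3*, *Cdkn1c* and *Mef2c* were called higher in proliferative libraries and *Mmp13*, *Spp1* and *Ibsp* higher in resting libraries. With the mouse as a block *Mef2c* lost its call (adjusted p = 0.0194). *Col10a1* had counts of 0, 3, 11 and 0 in resting libraries and 120, 208, 39 and 25 in proliferative libraries, where, as with *Ihh*, mice 1 and 2 were above mice 6 and 13.

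Lists of cells that surround the cartilage were higher in resting libraries. Perichondrial and fibroblast markers summed to 9076 to 37130 CPM there and to 626.3 to 3867 CPM in proliferative libraries, with 5 of the 9 markers called. Osteoblast and osteocyte markers summed to 6183 to 26890 CPM against 182.6 to 2435 CPM. *Col1a1*, which is on both lists, gave a mean of 15162 of the 15942 CPM of that sum in resting libraries. *Sp7*, an osteoblast transcription factor that is also on the prehypertrophic list, had a log2 fold change of -1.27 over all genes (adjusted p = 0.120). Osteoclast markers summed to 1496 to 4549 CPM against 14.4 to 444.6 CPM. Blood cell lists followed the same order. Neutrophil markers ranged from 3126 to 3864 CPM in resting libraries and from 0 to 532.0 CPM in proliferative libraries. Of the 8 markers 8 were called, and 7 with the mouse as a block. Erythroid markers ranged from 1899 to 12178 CPM against 0 to 1724 CPM, macrophage markers from 956.9 to 1078 CPM against 193.5 to 483.4 CPM, and B lymphoid markers from 98.1 to 233.9 CPM against 0 to 19.4 CPM. The marrow stroma sum ranged from 187.0 to 507.2 CPM against 16.6 to 87.4 CPM and the endothelial sum from 245.4 to 413.1 CPM against 80.1 to 112.0 CPM. In the proliferative libraries of mice 6 and 13, every erythroid, neutrophil and B lymphoid marker was at 0. Of the muscle markers, 4 of 10 (*Ckm*, *Myh1*, *Myh4* and *Tnnc1*) were at 0 in every library. The list summed to 0 to 81.6 CPM in resting libraries and to 58.1 to 88.1 CPM in proliferative libraries, mostly through *Tnni2*. This gene had 2, 2, 40 and 0 counts in resting libraries and 39, 31, 44 and 14 in proliferative libraries. Over all genes its log2 fold change was -1.19 (adjusted p = 0.134). Of 12 cell cycle genes 7 passed the filter, and edgeR's quasi-likelihood test called 0, with 3 of the 7 at an unadjusted p below 0.05, near the 40.9% of all filtered genes.

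**Figure D4:**
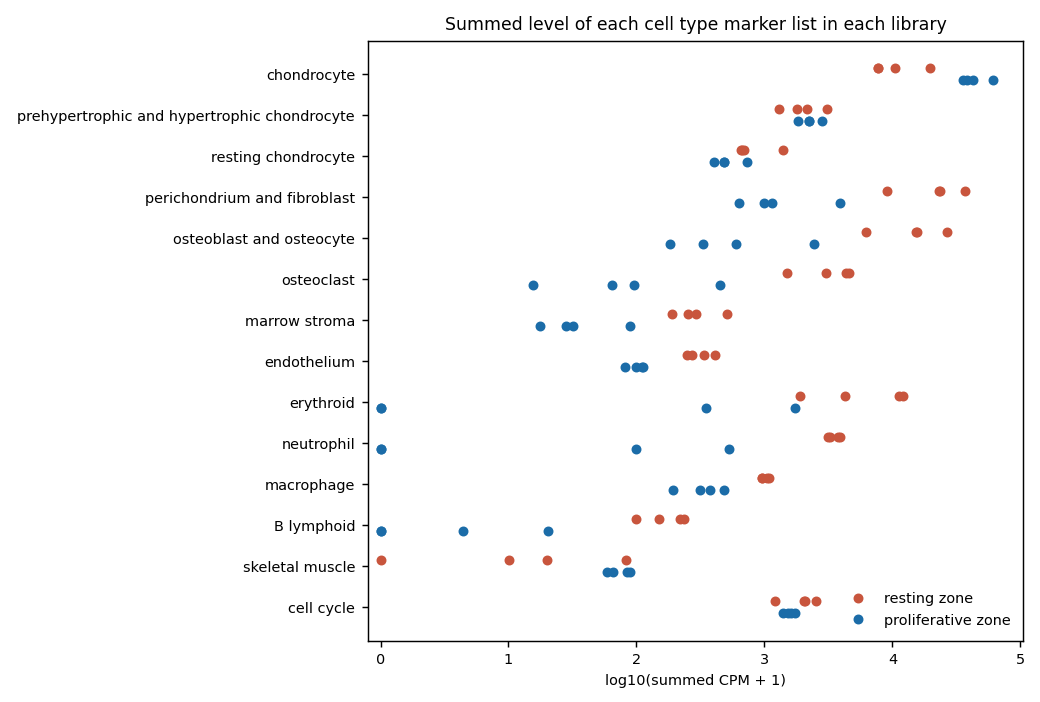
Summed TMM-scaled CPM of each cell type marker list, plotted as log10(sum + 1) on the horizontal axis, with 1 point per library (4 per zone, points at 0 coincide). Chondrocyte markers lie higher in all 4 proliferative libraries, and osteoclast, neutrophil and erythroid markers lie higher in all 4 resting libraries.

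The genes whose levels ran most like a loop gene were named by Pearson's r of log2(CPM + 1) over the 8 libraries, which share depth and zone, as a description. Closest to *Pth1r* were *Thbs3* (r = 0.996), *Msrb3*, *Copa*, *Smpd3* and *Me1* (r = 0.983). Closest to *Ptch1* were *Cox4i2* (r = 0.987), *Nid2*, *Uck2*, *Fxyd2* and *Gm14681* (r = 0.974). *Smpd3* and *Nid2* overlap *Prmt7* and *Rtraf* on the opposite strand at their 3′ ends, and those partners held more counts than they did. Closest to *Gli1* were *Cd53*, a leukocyte surface gene (r = 0.996), *Chil3*, *Kctd12*, *B2m* and *Ighm*, the gene of the immunoglobulin heavy chain (r = 0.990). The same measure for *Arhgap9*, added after its values were seen, named *Ltv1* (r = 0.987), *Slc13a5*, *Gabarap*, *Slc35b2* and *Gas5* (r = 0.964).

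Promoter sequence was looked at for motifs of the loop's transcription factors. RefSeq windows on GRCm38.p6, from 250 bases before to 50 bases after a start site, were given for 9 of the 10 genes, all but *Gli1*. On neither strand did any of them hold the GLI consensus GACCACCCA, found in 0.253% of 32851 windows, or its core CCACCCA, found in 9.3%. The cyclic AMP response element TGACGTCA, the site of the factors that act downstream of PTHrP's receptor, was found in the window of *Hhip* alone of the 9 and in 1.79% of all windows. It starts 75 bases before the *Hhip* start site, and 30 bases around it (chr8:80058065-80058094, minus strand) are shown with the element in capitals because it was the only match.
Hhip: gcgagcggcggTGACGTCAaggggcgcgcg
A match of these letters is a description and no site of binding, and these libraries hold no measurement of binding there.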

How the data were processed

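Laser-microdissected zones of 4 mice gave 8 libraries. Per the labels and the study's methods, after trimming with BBDuk the authors aligned reads to GRCm38 with HISAT2 2.1.0, counted them per gene with HTSeq 0.11.2 and deposited raw counts. A second table, used for gene names only, holds a signal that the authors deposited as TMM-scaled CPM, beside their log2 fold changes, mean log2 CPM, likelihood ratios, p-values and false discovery rates, which were not used. Its gene names were completed from GENCODE M21.

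Counts were tested with edgeR 4.0.16 (R 4.3.3): TMM factors, edgeR's filter by zone (minimum count 10, minimum total 15), quasi-likelihood test on zone, Benjamini-Hochberg adjustment over all genes tested. A second fit kept all genes with a count. DESeq2 1.42.0, other factors, filters and thresholds and each library left out were alternatives. Single values were compared by exact permutation, two-sided. Bounds used 3 counts per library.

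Same-numbered libraries came from 1 animal by the labels, so numbers pair them; the correlations of their deviations were 0.165, 0.0136, 0.137 and 0.0577 in mice 1, 2, 6 and 13. The study names no block, so the fit with it is an alternative. The loop genes and all lists were chosen with earlier results of these data known. Genes named from a list were those called and up to 5 with the lowest p, and any others were chosen after their values were seen. No 2 libraries differed by as little as counting noise.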

Additional observations from a re-analysis of the deposited data

Results flagged for a closer look

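Within the 4 libraries of a zone, the highest value stood apart from the other 3 by more than the critical share of the range in 2 of 28 groups of values checked, where chance gives about 1 in 20. *Gli2* was at 5.97 CPM in the resting library of mouse 6 and at 0 in the other resting libraries. *Gm6556*, which overlaps *Gli3*, was at 1.94 CPM in the proliferative library of mouse 1 and at 0 in the others. Both rest on at most 3 counts.

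*Smo* differed between zones with opposite signs in the sexes: the resting minus proliferative level was on average 1.07 CPM in the 2 female mice and -2.66 CPM in the 2 male mice. The zone by sex interaction of edgeR's quasi-likelihood test did not pass for any loop gene, with adjusted p-values from 0.724 (*Gli1*) and 0.746 (*Pth1r*) up to 1.00 (*Smo* and the 6 others outside the filter).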

How the results depend on the processing

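Of 460 alternative values of call counts and of fold changes of loop genes, 391 kept their direction and their side of the threshold, or stayed within 1.5 times the count. Of the called fold changes, *Gli1* changed sign, to -0.31 with *Arhgap9* summed, and was not called there. That sum was a choice made after seeing the data. It left 0 loop genes called higher in resting libraries among those that passed the filter. *Smo* changed sign with library totals (0.11) and ranged from -0.63 to 0.40 with each library left out, and *Gli3* ranged from -1.20 to 0.036 (without the resting library of mouse 6). *Pth1r*, *Ptch1*, *Ihh* and *Gas1* kept their sign in every alternative run. *Hhip* kept it too unless summed with *Gm27820*, where it was 0.08 without the proliferative library of mouse 6. Among the 3 loop genes that passed the filter, those called higher in proliferative libraries numbered 1 and became 2, with *Pth1r* added, under the likelihood ratio test, DESeq2, RLE factors, upper-quartile factors, TMM factors over all genes, an adjusted p threshold of 0.05 and no filter, and 0 in the test against a log2 fold change of 1. *Ihh*, outside the filter, stayed called in all of these.

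With the mouse as a replicate block, 2 filtered loop genes were called higher in proliferative libraries and 0 of those left out by the filter, since *Ihh* was lost at a log2 fold change of -5.95. Over all genes with a count, *Ptch1* also lost its call (adjusted p = 0.0149). The block changed no other call of a loop gene.

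With each library left out in turn, *Ihh* stayed called, filtered loop genes called higher in proliferative libraries numbered 0 to 2, other hedgehog genes called higher in resting libraries 0 to 1, hedgehog response genes 0 to 1, all genes higher in resting libraries 268 to 457 and in proliferative libraries 186 to 342. The lowest count of all genes in resting libraries, 268, came without the proliferative library of mouse 2.

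All genes called were 207 in resting libraries and 82 in proliferative libraries in the test against a log2 fold change of 1 (hedgehog response genes 0). A threshold of 0.05 gave 432 higher in proliferative libraries, with 2 other hedgehog genes and 1 gene of PTHrP transduction higher in resting libraries. Higher in resting libraries were 1058 genes with no filter (3 other hedgehog genes, 5 of PTHrP transduction) and 741 with at least 10 counts in total (1 and 2). With at least 10 counts in every library, 125 and 143 genes were called in the resting and the proliferative libraries, and *Gli1*, *Ptch1* and *Ccnd2* were not tested (0 loop genes and 0 response genes higher in resting libraries), so that the 1 loop gene called higher in proliferative libraries there was *Pth1r* (adjusted p = 0.00600). The likelihood ratio test and library totals each called 1 other hedgehog gene.

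Scaling moved the median log2 fold change of all genes by -0.22 (upper quartile), 0.12 (library totals) and -0.23 (TMM over all genes), and the share of calls that were higher in resting libraries from 60.8% to 48.1%, 69.4% and 47.4%, in the same order. Without division by length, 7 pairs of loop genes changed order in resting libraries and 3 in proliferative libraries, and with *Gli1* and *Arhgap9* summed 0 and 2. Of the 5 genes most like *Pth1r*, *Ptch1* and *Gli1*, 1 each stayed with Spearman's correlation. Counts were few for *Pthlh*, *Gli2*, *Smo*, *Gli3* and *Hhip*, each with at most 58 over the 8 libraries. *Ihh*, with 39 counts, was called over all genes without the block, and the part of depth was not tested.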
